A study of Homo sapiens with 36 samples.

Results

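Gene expression in MDA-MB-468 breast cancer cells was set against that in PANC-1 pancreatic carcinoma cells and WiDr colorectal adenocarcinoma cells, using control libraries only. The libraries were chosen by their titles as the hairpin controls of each line, 9 of the 36 libraries in the series, with 3 biological replicates per line. All 9 carried the same kind of modification: a pGIPZ lentiviral vector that expresses a short hairpin RNA with no target (non-silencing). The 3 lines were grown in the same medium, DMEM with fetal bovine serum. The other libraries hold targeting hairpins or guides, and a second set of WiDr controls with a non-targeting guide. Each line is a single established tumour line from another organ, so a difference between lines cannot be told apart from a difference between organs, donors or separate cultures.

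MDA-MB-468 is an adherent line of the basal-like, triple-negative class of breast cancer. As background, cells of that class keep keratins and adhesion proteins of the basal layer of the mammary duct and lack the hormone receptors of luminal cells, and this line is known for an amplified EGFR gene and for loss of RB1 and SMAD4. PANC-1 is a poorly differentiated line with mesenchymal traits and a known loss of CDKN2A. WiDr is an epithelial line with intestinal traits.

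Library totals ran from 30582799 to 38470613 counts, and 5137 of 26475 genes had no count in any of the 9 libraries. Log2 expression differed between libraries of the same line by a root mean square of 0.40 to 0.75 in MDA-MB-468, 0.40 to 0.61 in PANC-1 and 0.37 to 0.39 in WiDr. Between MDA-MB-468 and the other lines it was 2.49 to 2.60. Replicate 1 of MDA-MB-468 and replicate 1 of PANC-1 stood apart. In MDA-MB-468, replicate 1 had 16045 genes detected, against 17713 and 17437 in replicates 2 and 3. Its deviation from the other replicates fell with transcript length (Spearman's rho across genes -0.69), whereas that of PANC-1 replicate 1 increased with it (0.73). Of the 977 genes given below as at least 4-fold higher, 976 were still called higher than in both lines without MDA-MB-468 replicate 1. Of the 922 at least 4-fold lower, 880 were still called lower. These repeat calls asked for an adjusted p under 0.05 and the same sign, not for a 4-fold change. List counts of at least 5 that moved by over 1.5 times without the replicates that stood apart are given beside the list. Some markers picked as a check fitted the labels: KRT5 and KRT14 were high in MDA-MB-468 only, KRT20 and CEACAM5 in WiDr only, and the mesenchymal gene VIM in PANC-1 only. Other list members given below did not follow the labels. The intestinal factor CDX2 was higher in PANC-1 than in WiDr, and the basal breast markers COL17A1 and KLK6 were highest in WiDr. CD3D, MS4A1 and HLA-DRA, which mark T cells, B cells and antigen-presenting cells, had no count in MDA-MB-468. Of the 12 immune markers 4 had enough counts to be tested. Among these the monocyte receptor CD14 was higher in MDA-MB-468 than in both lines and CD68 was lower, as given below.

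Most genes differed between lines. Levels are given as CPM, counts relative to library size scaled with trimmed-mean factors, and calls are from edgeR's quasi-likelihood test at a Benjamini-Hochberg adjusted p under 0.05. Of 16112 genes tested, 69.5% differed between MDA-MB-468 and PANC-1, 34.7% higher and 34.8% lower in MDA-MB-468. Against WiDr 71.7% differed, 36.9% higher and 34.9% lower in MDA-MB-468. MDA-MB-468 was higher than both other lines for 3349 genes (20.8%) and lower than both for 2938 genes (18.2%). With a change of at least 4-fold in both comparisons there were 977 genes higher (6.06%) and 922 lower (5.72%). A further 1090 genes lay above PANC-1 and below WiDr (6.77%), and 1111 lay below PANC-1 and above WiDr (6.9%). By the same 4-fold rule PANC-1 was higher than both other lines for 1081 genes (6.71%) and lower for 950 (5.9%), and WiDr was higher for 1007 (6.25%) and lower for 1032 (6.41%), so the numbers in MDA-MB-468 were close to those in the other lines. Both comparisons share the MDA-MB-468 libraries. The median log2 fold change over all genes was near 0 in each comparison (-0.004 against PANC-1 and 0 against WiDr), and the median of the absolute log2 fold change was 0.873 against PANC-1 and 0.941 against WiDr. Most of the 977 and 922 genes were also called in the same direction when the 9 hairpin 1 libraries replaced the controls (923 higher and 830 lower). With the 9 hairpin 2 libraries 908 and 819 were, and 0 were called the opposite way in either set. A 4-fold change was not asked for in these repeat calls.

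**Figure D1:**
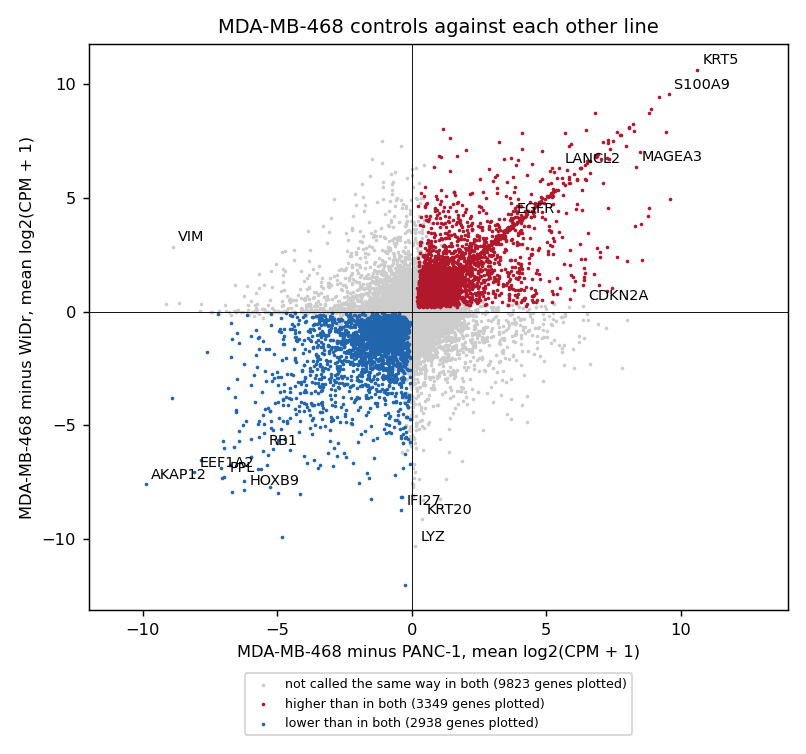
Each point is a tested gene, placed by the difference of mean log2(CPM + 1) between MDA-MB-468 and PANC-1 (x axis) and between MDA-MB-468 and WiDr (y axis). Red points are the 3349 genes higher in MDA-MB-468 than in both lines, blue points the 2938 lower than in both, and grey points all others; KRT5 and S100A9 lie far up on both axes, and AKAP12 far down on both.

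Basal keratins and S100 proteins were among the genes with the largest excess over both lines. Of the 16 leading genes, ranked by the smaller of the differences in log2(CPM + 1), 3 encode basal keratins (KRT5, KRT14, KRT17) and 3 encode S100 calcium-binding proteins of the epidermal cluster (S100A7, S100A8, S100A9). CASP14, a caspase of cornifying keratinocytes, and KLK5, a serine protease of the skin surface, were also among them. In the 3 MDA-MB-468 libraries KRT5 had 1728, 1508 and 1527 CPM, against 0.0256, 0.0581 and 0 CPM in PANC-1 and 0 in all 3 WiDr libraries. The groups did not overlap, and with the WiDr sum set to the floor of 3 counts MDA-MB-468 was at least 50700-fold higher. The log2 fold change over PANC-1 was 15.63 ± 0.30 (SE; edgeR's quasi-likelihood test, Benjamini-Hochberg adjusted p = 8.94e-09). S100A9 had 995, 586 and 738 CPM in MDA-MB-468 and no count in PANC-1 or WiDr, at least 28000-fold higher than in PANC-1 and at least 24600-fold higher than in WiDr. S100A7 (406, 239 and 276 CPM) and S100A8 (231, 148 and 168 CPM) were likewise seen in MDA-MB-468 only, at a floor of 0.0276 CPM in PANC-1 and 0.0314 CPM in WiDr.

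The other leading genes have varied roles. MGP, an extracellular inhibitor of calcification, averaged 493 ± 95.5 CPM in MDA-MB-468 and under 0.04 CPM in each other line (SD, n = 3). SLC1A3 and SLC1A6, both glutamate transporters, averaged 273 and 280 CPM in MDA-MB-468, against 0.0095 and 0.036 CPM in PANC-1 and 0 in WiDr. VTCN1, a surface ligand that inhibits T cells, averaged 224 ± 3.86 CPM in MDA-MB-468 and no more than 0.029 CPM in the other lines. The list closed with ALDH3B2, OLFML3, ANXA8 and ANXA8L1. ANXA8 and ANXA8L1 are near copies: 47.0% of the 50-base stretches of ANXA8 transcripts also occur in ANXA8L1, so the split of counts between them is uncertain. Over the 16 genes no MDA-MB-468 library fell under 143 CPM, and no library of another line exceeded 2.84 CPM (KRT17 in WiDr).

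Promoters of 3 of these genes show what stands just before the start of transcription; the RefSeq windows (GRCh38.p14) hold the 250 bases upstream, 5′ to 3′ on the gene's strand, with TATAAA in capitals where it occurs. The windows are chr12:52520395-52520644 (minus strand) for KRT5, chr1:153357604-153357853 (plus strand) for S100A9 and chr1:153460652-153460901 (minus strand) for S100A7.
KRT5: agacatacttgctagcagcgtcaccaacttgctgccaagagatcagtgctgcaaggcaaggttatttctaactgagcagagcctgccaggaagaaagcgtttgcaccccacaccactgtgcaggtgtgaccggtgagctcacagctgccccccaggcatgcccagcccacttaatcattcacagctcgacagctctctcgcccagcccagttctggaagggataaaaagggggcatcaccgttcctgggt
S100A9: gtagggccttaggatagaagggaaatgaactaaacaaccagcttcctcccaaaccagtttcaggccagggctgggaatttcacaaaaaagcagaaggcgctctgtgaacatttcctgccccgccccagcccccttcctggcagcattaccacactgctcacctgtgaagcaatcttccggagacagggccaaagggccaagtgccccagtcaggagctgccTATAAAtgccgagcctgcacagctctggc
S100A7: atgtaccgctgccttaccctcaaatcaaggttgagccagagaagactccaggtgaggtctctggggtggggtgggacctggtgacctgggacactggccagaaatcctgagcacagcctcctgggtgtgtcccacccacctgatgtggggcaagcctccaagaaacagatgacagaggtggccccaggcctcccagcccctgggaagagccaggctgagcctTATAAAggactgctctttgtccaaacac
TATAAA begins 29 bases before the start of S100A9 and 28 before that of S100A7, and these letters are not in the KRT5 window. On either strand TATAAA is present in 10.7% of the 35116 windows of that length. The AP-1 motif TGANTCA, present in 6.6% of them on either strand, is in none of the 3. The motifs were matched as letters and say nothing of binding.

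The genes lowest relative to both lines were silent or nearly silent in MDA-MB-468 and well expressed elsewhere. AKAP12, a scaffold for protein kinases A and C, had 0.202 ± 0.121 CPM in MDA-MB-468, against 1159 ± 329 CPM in PANC-1 and 230 ± 11.4 CPM in WiDr (SD, n = 3 each). Its log2 fold change had an adjusted p of 4.29e-09 over PANC-1 and 1.17e-08 over WiDr (edgeR's quasi-likelihood test, Benjamini-Hochberg). EEF1A2, a tissue-restricted translation elongation factor, averaged 0.116 CPM in MDA-MB-468, 298 CPM in PANC-1 and 148 CPM in WiDr. EIF4G3, a scaffold of translation initiation, averaged 0.156 CPM in MDA-MB-468, 157 CPM in PANC-1 and 185 CPM in WiDr. A further 8 of the 16 had no count in any MDA-MB-468 control: the plakin PPL, the chromatin proteins GLYR1 and UBN1, the neurotensin receptor NTSR1, the transcription factors TCF12 and HOXB9, the phosphodiesterase PDE10A and FKBP10, a collagen chaperone. Against the floor of 0.0291 CPM, NTSR1 was at least 3500-fold lower in MDA-MB-468 than in PANC-1 and at least 8270-fold lower than in WiDr. The remaining 5 were SLC12A7, CRIP1, ZNF655, MYEF2 and ARMCX3, none above 1.4 CPM in an MDA-MB-468 library. All 16 higher and all 16 lower genes also separated the 6 MDA-MB-468 libraries with targeting hairpins from the 12 such libraries of the other lines without overlap. They were picked for large differences between these same lines, so this is a description and no independent support. The share of all tested genes without overlap there was not counted.

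**Figure D2:**
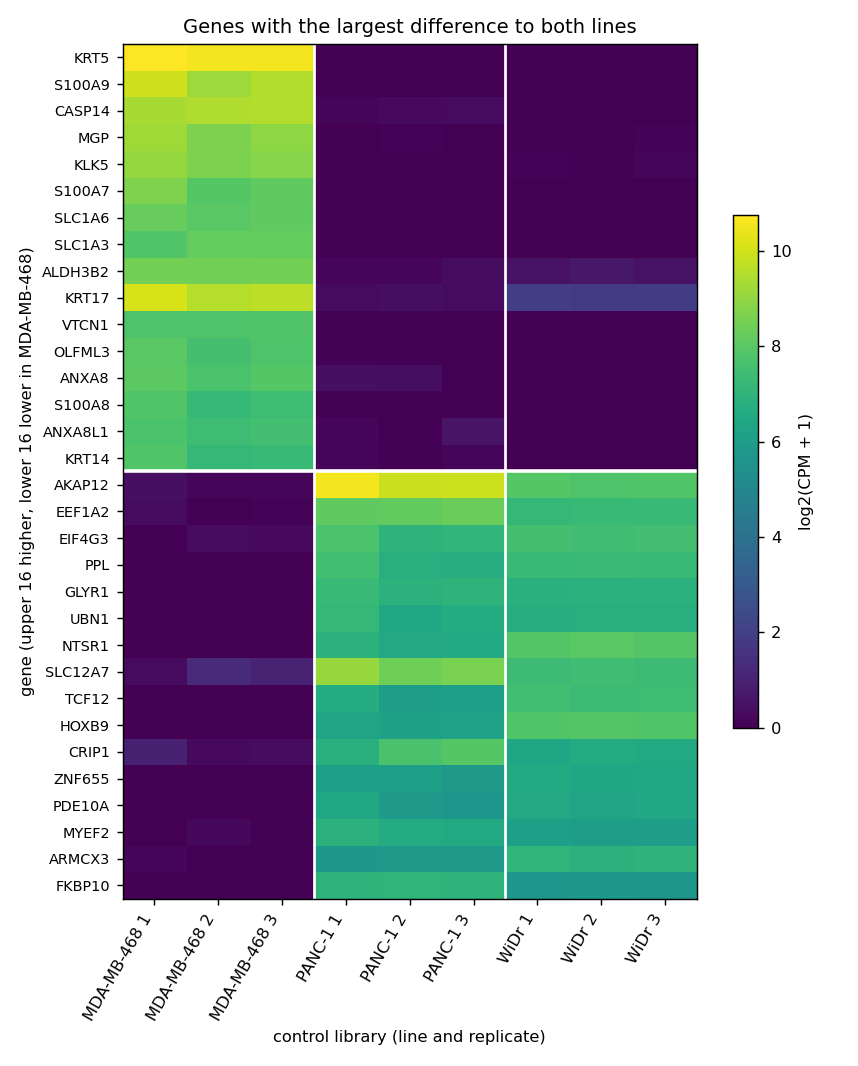
Colour gives log2(CPM + 1) for the 16 genes highest and the 16 genes lowest in MDA-MB-468 relative to both other lines (rows) in the 9 control libraries (columns, MDA-MB-468 at the left). The upper block is bright in the 3 MDA-MB-468 libraries alone, and the lower block is dark there and bright in the other 6.

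Most tested basal breast markers were higher in MDA-MB-468. Of 22 tested members 17 rose over both lines and 1 fell, where the shares of all genes were 20.8% and 18.2%, with a median log2 fold change of 9 over PANC-1 and 8.07 over WiDr. A gene expressed in MDA-MB-468 alone passes the count filter through that line and had to differ, so such counts describe the members and are no support for a change of the list. Here 10 of the 22 passed through MDA-MB-468 alone, and of the other 12, 7 rose and 1 fell. TRIM29, a basal-cell marker that acts in DNA repair signalling, averaged 266.5 ± 4.95 CPM in MDA-MB-468, 0.0376 CPM in PANC-1 and 56.2 CPM in WiDr. FOXC1, a transcription factor of basal-like tumours, had 52.5, 50.3 and 53.97 CPM in MDA-MB-468, 10.3, 11.04 and 10.9 CPM in PANC-1, and 14.2, 13.1 and 11.8 CPM in WiDr. Its log2 fold changes were 2.28 ± 0.10 and 2.00 ± 0.10 (SE). SFRP1, a secreted Wnt inhibitor, VGLL1, a TEAD cofactor, and CRYAB, a small heat shock protein, also rose over both lines. COL17A1, a hemidesmosome collagen, was the member that fell, with 0.0373 CPM in MDA-MB-468, 0.240 CPM in PANC-1 and 78.7 CPM in WiDr. GABRP and KLK6 exceeded PANC-1 and lay below WiDr, where KLK6 averaged 510 CPM against 103 CPM in MDA-MB-468. TP63 and SOX10, basal transcription factors, were too low to test in the fit of all 9 libraries. Without MDA-MB-468 replicate 1, 24 of the 25 listed markers were tested, so these factors did not both stay untested. Of those 24, 19 rose over both lines and 1 fell.

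Of 23 keratins tested 17 were higher than in both lines and 1 lower, against 20.8% and 18.2% of all genes. Of the 23, 7 were in the test through MDA-MB-468 alone. Of the other 16, 10 rose and 1 fell. KRT7, a keratin of simple duct epithelium, had 1571, 1092 and 1169 CPM in MDA-MB-468, at most 8.51 CPM in PANC-1 and at most 11.9 CPM in WiDr. KRT23 averaged 252 CPM in MDA-MB-468, no count in PANC-1 and 0.617 CPM in WiDr. KRT18, the partner of KRT8 in simple epithelium, fell: 1263, 891 and 982 CPM in MDA-MB-468, 1870, 2469 and 2593 CPM in PANC-1, and 1832, 2007 and 1910 CPM in WiDr. These groups did not overlap (log2 fold changes -1.14 ± 0.16 and -0.87 ± 0.16). KRT81 and KRT86 share 37.6% of the 50-base stretches of KRT81, and KRT6A and KRT6B share 21.7% of those of KRT6A, so their separate counts are uncertain. Among S100 proteins and annexins 13 of 28 rose and 4 fell, with 5 tested through MDA-MB-468 alone. Of the other 23, 8 rose and 4 fell, where 20.8% and 18.2% of all genes did. S100A14 and S100A16 rose beside the S100A7 to S100A9 genes, and ANXA1, an anti-inflammatory annexin, averaged 426 CPM in MDA-MB-468, 90.1 CPM in PANC-1 and 199 CPM in WiDr. S100A6, ANXA4, ANXA5 and ANXA11 fell.

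Luminal markers differed in direction. Of 18 tested 3 rose over both lines and 6 fell (20.8% and 18.2% of all genes), with a median of 0.71 over PANC-1 and -1.34 over WiDr. GATA3, a luminal transcription factor, had 47.7, 50.9 and 51.6 CPM in MDA-MB-468, 7.95 to 9.09 CPM in PANC-1 and 3.83 to 4.19 CPM in WiDr. SPDEF, an Ets factor of secretory cells, averaged 163 CPM in MDA-MB-468, 0.870 CPM in PANC-1 and 48.8 CPM in WiDr. ESR1, the oestrogen receptor, rose but was low, with 2.22, 2.80 and 3.88 CPM in MDA-MB-468 and no count in the other lines. PGR, the progesterone receptor, was too low to test and had no count in MDA-MB-468. ERBB2, which is amplified in another breast cancer class, averaged 53.2 CPM in MDA-MB-468, 43.4 CPM in PANC-1 and 140 CPM in WiDr. Over PANC-1 its direction turned in the libraries with targeting hairpins, to log2 fold changes of -0.58 with hairpin 1 and -0.79 with hairpin 2. FOXA1, XBP1 and ERBB3 were higher than in PANC-1 and lower than in WiDr, while TBX3, AGR2 and CA12 were lower than in both.

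Secretory proteins of the mammary gland were higher than in both lines for 9 of 13 tested members and lower for 1. Among all genes 20.8% were higher and 18.2% lower. Of the 13 members, 6 entered the test through MDA-MB-468 alone, and of the other 7, 3 rose and 1 fell. AZGP1, a zinc-binding glycoprotein of secretions, had 1016, 676 and 777 CPM in MDA-MB-468, at most 0.114 CPM in PANC-1 and 24.6 to 26.0 CPM in WiDr. SCGB2A2 (mammaglobin), used as a marker of breast origin, had 48.8, 31.4 and 37.8 CPM in MDA-MB-468 and no count in either other line. MUCL1, a small breast mucin, averaged 13.97 CPM in MDA-MB-468 and was likewise without a count elsewhere. SLPI, a protease inhibitor, and PROM1, a membrane protein of progenitor cells, also rose over both, but PROM1 was lower than in the WiDr guide controls (log2 fold change -0.48). PIGR, the immunoglobulin transporter, fell, at 0.105 CPM in MDA-MB-468, 0.313 CPM in PANC-1 and 0.524 CPM in WiDr, and was higher than in PANC-1 in the hairpin 2 libraries (log2 fold change 1.73).

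Most epithelial junction genes were higher than in PANC-1. Of 32 members 28 were higher and 1 lower than in PANC-1, against 34.7% and 34.8% of all genes, with a median log2 fold change of 3.24. Against WiDr 9 were higher and 12 lower, close to the 36.9% and 34.9% of all genes, with a median of -0.21. In both comparisons 9 rose, against 20.8% of all genes. GRHL2, a transcription factor of epithelial identity, had 71.9, 114 and 96.4 CPM in MDA-MB-468, at most 0.0512 CPM in PANC-1 and 94.7 to 103 CPM in WiDr. CDH1 (E-cadherin) had 114, 160 and 136 CPM in MDA-MB-468, 9.83 to 15 CPM in PANC-1 and 452 to 473 CPM in WiDr, so MDA-MB-468 lay between the others. DSP, the desmosomal plakin, rose over both lines, with 507, 1157 and 840 CPM in MDA-MB-468, 3.75 to 7.47 CPM in PANC-1 and 123 to 132 CPM in WiDr. Its transcript is long, and replicate 1, in which long transcripts were low, gave the lowest of the 3 values. Without that replicate the log2 fold change of DSP was 7.53 over PANC-1 and 2.98 over WiDr, against 7.27 and 2.72 with it.

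Mesenchymal and matrix genes were mostly lower than in PANC-1: of 25 tested 16 fell and 5 rose, where 34.8% and 34.7% of all genes did, with a median log2 fold change of -5.40. Of the 25, 9 did not pass the filter in MDA-MB-468, so the count is a description. Against WiDr 12 were higher and 9 lower (36.9% and 34.9% of all genes), with a median of 1.08. VIM (vimentin) had 6.41, 7.22 and 8.16 CPM in MDA-MB-468, 3450, 4246 and 4008 CPM in PANC-1, and 0.129, 0.177 and 0.0976 CPM in WiDr. Its log2 fold change was -9.07 ± 0.18 over PANC-1 and 5.70 ± 0.22 over WiDr. The 8 members that fell below both lines included ZEB1, a repressor of epithelial genes, and the receptor kinase AXL. AXL had 1.08, 1.01 and 1.02 CPM in MDA-MB-468, 199.6 to 242 CPM in PANC-1 and 6.61 to 7.77 CPM in WiDr. FN1 (fibronectin), TAGLN and S100A4 rose over both lines, FN1 with 10.7, 22.2 and 17.1 CPM in MDA-MB-468, 1.02 to 1.64 CPM in PANC-1 and 2.28 to 3.31 CPM in WiDr.

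Of 25 integrins and laminins tested 5 were higher and 8 lower than in both lines. The share that was higher was close to the 20.8% of all genes, and 18.2% of all genes were lower. ITGB1, the shared beta subunit of most matrix receptors, had 199, 269 and 243 CPM in MDA-MB-468, 1285 to 1607 CPM in PANC-1 and 1974 to 2124 CPM in WiDr. Its log2 fold changes were -2.57 ± 0.14 and -3.12 ± 0.14. ITGB6 and ITGB8, which pair with the alpha V subunit and activate TGF-beta, rose instead: ITGB6 averaged 95.3 CPM in MDA-MB-468, 0.155 CPM in PANC-1 and 41.6 CPM in WiDr, and ITGB8 averaged 80.2 CPM in MDA-MB-468, 4.55 CPM in PANC-1 and 5.60 CPM in WiDr. LAMA4 also rose, whereas ITGA2, ITGA3, ITGA6, LAMA5 and LAMB1 fell.

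Intestinal markers were lower than in WiDr. Of 16 tested 15 were lower than in WiDr, against 34.9% of all genes, and 6 were lower than in both lines, against 18.2%. Against PANC-1 6 were lower, close to the 34.8% of all genes, and 4 higher, against 34.7%. Of the 16, 12 did not pass the filter in MDA-MB-468 and entered through the other lines, so the count is a description. KRT20 had 0.0854, 0.392 and 0.434 CPM in MDA-MB-468, none in PANC-1 and 712 to 729 CPM in WiDr. LGALS4, an intestinal galectin, averaged 0.439 CPM in MDA-MB-468, 3.14 CPM in PANC-1 and 430 CPM in WiDr. CDX2, an intestinal transcription factor, had no count in MDA-MB-468, 9.21 to 11.2 CPM in PANC-1 and 2.58 to 3.16 CPM in WiDr. Of 11 pancreas markers tested 2 fell below both lines, close to the 18.2% of all genes: PDX1 and NR5A2, both transcription factors. Against PANC-1, the line from that organ, 4 were lower, close to the 34.8% of all genes, and 2 higher, against 34.7%. Against WiDr 9 were lower and 0 higher, where 34.9% and 36.9% of all genes were, with a median log2 fold change of -7.37. Of the 11, 8 did not pass the filter in MDA-MB-468, so these counts are a description. Of 7 endothelial and stromal markers tested PECAM1, CDH5, VWF and KDR, which entered the test through MDA-MB-468 alone, rose over both lines and LUM fell, all at low levels in MDA-MB-468, with the highest mean at 2.70 CPM (PECAM1 in MDA-MB-468). The monocyte receptor CD14 rose to 19.1 CPM in MDA-MB-468, against 1.84 CPM in PANC-1 and 1.67 CPM in WiDr, while the macrophage protein CD68 fell to 2.01 CPM, against 82.0 CPM in PANC-1 and 6.98 CPM in WiDr.

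**Figure D3:**
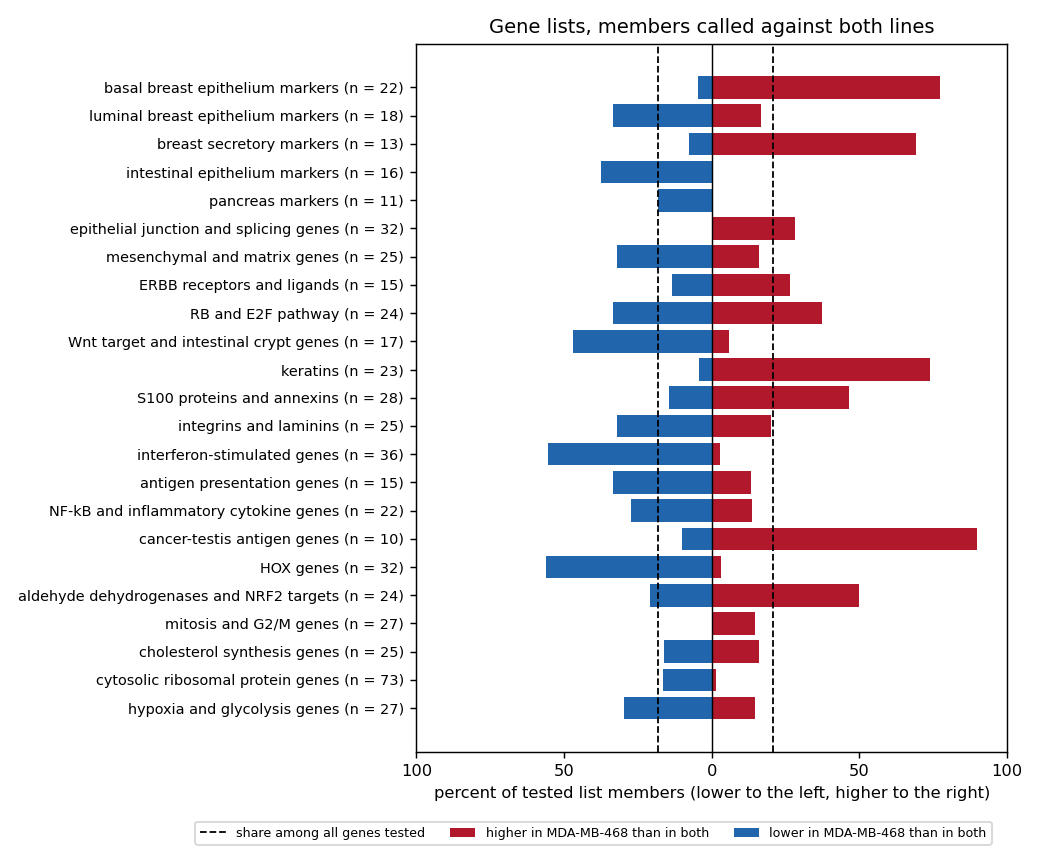
Bars show the percent of tested members of each gene list that were higher (red, to the right) or lower (blue, to the left) in MDA-MB-468 than in both other lines, for lists with at least 10 tested members (n beside each name). Dashed lines mark the shares among all genes tested, 20.8% higher and 18.2% lower; the bars of basal breast markers, keratins and cancer-testis antigens reach far to the right, with 10 of 22, 7 of 23 and 6 of 10 members in the test through MDA-MB-468 alone, and those of interferon-stimulated and HOX genes reach far to the left.

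EGFR, the receptor of epidermal growth factor, was higher in MDA-MB-468 with a wide spread between replicates. It had 421, 1916 and 1050 CPM in MDA-MB-468, 189, 38.8 and 50.2 CPM in PANC-1, and 52.4, 54.6 and 55.9 CPM in WiDr. The groups did not overlap, with log2 fold changes of 3.61 ± 0.70 over PANC-1 (adjusted p = 0.00117) and 4.38 ± 0.72 over WiDr (adjusted p = 0.000416; edgeR's quasi-likelihood test, Benjamini-Hochberg). The lowest MDA-MB-468 value and the highest PANC-1 value came from the replicates 1 that stood apart. Without PANC-1 replicate 1 the log2 fold change over PANC-1 was 4.66, without MDA-MB-468 replicate 2 it was 2.99, and without both replicates 1 it was 5.06, each past the threshold. Of the genes beside EGFR, LANCL2, SEC61G and VOPP1 were also raised, LANCL2 and VOPP1 with little spread between replicates. LANCL2 had 1401, 1422 and 1458 CPM in MDA-MB-468, 30.8, 30.2 and 31.7 CPM in PANC-1, and 17.8, 17.2 and 16.4 CPM in WiDr, a log2 fold change of 5.53 ± 0.10 and 6.38 ± 0.10. SEC61G, a subunit of the protein translocation channel, averaged 2147 ± 554 CPM in MDA-MB-468, 146 CPM in PANC-1 and 103 CPM in WiDr. VOPP1 averaged 1211 ± 14.2 CPM in MDA-MB-468, 193 CPM in PANC-1 and 128 CPM in WiDr. Of nearby genes of low level, EGFR-AS1, ELDR, FKBP9P1 and PHKG1 were also higher than in both lines. EGFR-AS1 varied between replicates, with 0.399, 4.56 and 1.49 CPM in MDA-MB-468. It lies within EGFR on the opposite strand. The counting of strands is not given, so its reads cannot be told apart from those of EGFR. SEPT14 was not raised over either line. On chromosome 7, SEC61G, EGFR, LANCL2, VOPP1 and ZNF713 form an unbroken run of 5 genes that were at least 4-fold higher than in both lines, counting genes with a mean of at least 5 CPM, over 1190 kb (chr7:54752250-55942530, hg38). The next genes along the chromosome, MRPS17, PSPH, CCT6A, SUMF2 and CHCHD2, were also higher than in both lines by smaller amounts, CHCHD2 with log2 fold changes of 1.72 ± 0.22 and 2.13 ± 0.22. DNA copy number was not measured, and its part in these levels was not tested.

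Other members of the receptor family showed no common direction. Of 15 tested receptors and ligands (20.8% and 18.2% of all genes rose and fell) 4 rose over both lines (EGFR, EGF, EPGN and LRIG1) and 2 fell (HBEGF and ERRFI1). Of these 15, 2 entered the test through MDA-MB-468 alone, and of the other 13, 2 rose and 2 fell. LRIG1, a negative regulator of the receptor, averaged 69.0 ± 9.57 CPM in MDA-MB-468, 3.10 CPM in PANC-1 and 7.79 CPM in WiDr. ERRFI1, an inhibitor induced by receptor signalling, averaged 89.6 CPM in MDA-MB-468, 365 CPM in PANC-1 and 519 CPM in WiDr. The ligands AREG and EREG were far lower than in WiDr: AREG had 2.30 to 4.84 CPM in MDA-MB-468 and 389 to 394 CPM in WiDr.

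On chromosome 16, a stretch of neighbouring genes was silent in MDA-MB-468. All 13 genes of the table between UBALD1 and PPL (chr16:4608883-4960741, 352 kb, hg38) had no count in the 3 control libraries, and 11 of them had enough counts in the other lines to be tested. Of those 11, 10 also had no count in any of the 9 MDA-MB-468 libraries, with targeting hairpins included, and the other had a count of 1. PPL (periplakin, a cytoskeletal linker of desmosomes) had no count in MDA-MB-468, 180, 106 and 103 CPM in PANC-1 and 152, 160 and 150 CPM in WiDr, so that MDA-MB-468 was at least 4520-fold lower than PANC-1 and 5290-fold lower than WiDr. GLYR1 averaged 134.5 CPM in PANC-1 and 115 CPM in WiDr, and MGRN1, a ubiquitin ligase, averaged 35.8 CPM in PANC-1 and 64.9 CPM in WiDr. SMIM22 was the tested member not called against both, since PANC-1 itself had at most 0.142 CPM.

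Levels changed at the edges of that stretch. At lower coordinates, CDIP1 averaged 0.0499 CPM in MDA-MB-468, 35.0 CPM in PANC-1 and 2.83 CPM in WiDr. HMOX2, the constitutive haem oxygenase, had 0.427, 3.22 and 2.20 CPM in MDA-MB-468, 54.6 to 86.4 CPM in PANC-1 and 36.3 to 40.6 CPM in WiDr. NMRAL1, the next gene, averaged 35.6 CPM in MDA-MB-468, 62.9 CPM in PANC-1 and 22.3 CPM in WiDr, between the other lines. On the other side SEC14L5, which overlaps PPL on the opposite strand, was raised: 19.96, 28.7 and 25.5 CPM in MDA-MB-468, 0.541 to 0.845 CPM in PANC-1 and 0.148 to 0.290 CPM in WiDr. Its log2 fold changes were 5.07 ± 0.24 and 6.93 ± 0.29. The counting of strands is not given in the sources used here, so reads of overlapping genes cannot be told apart.

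**Figure D4:**
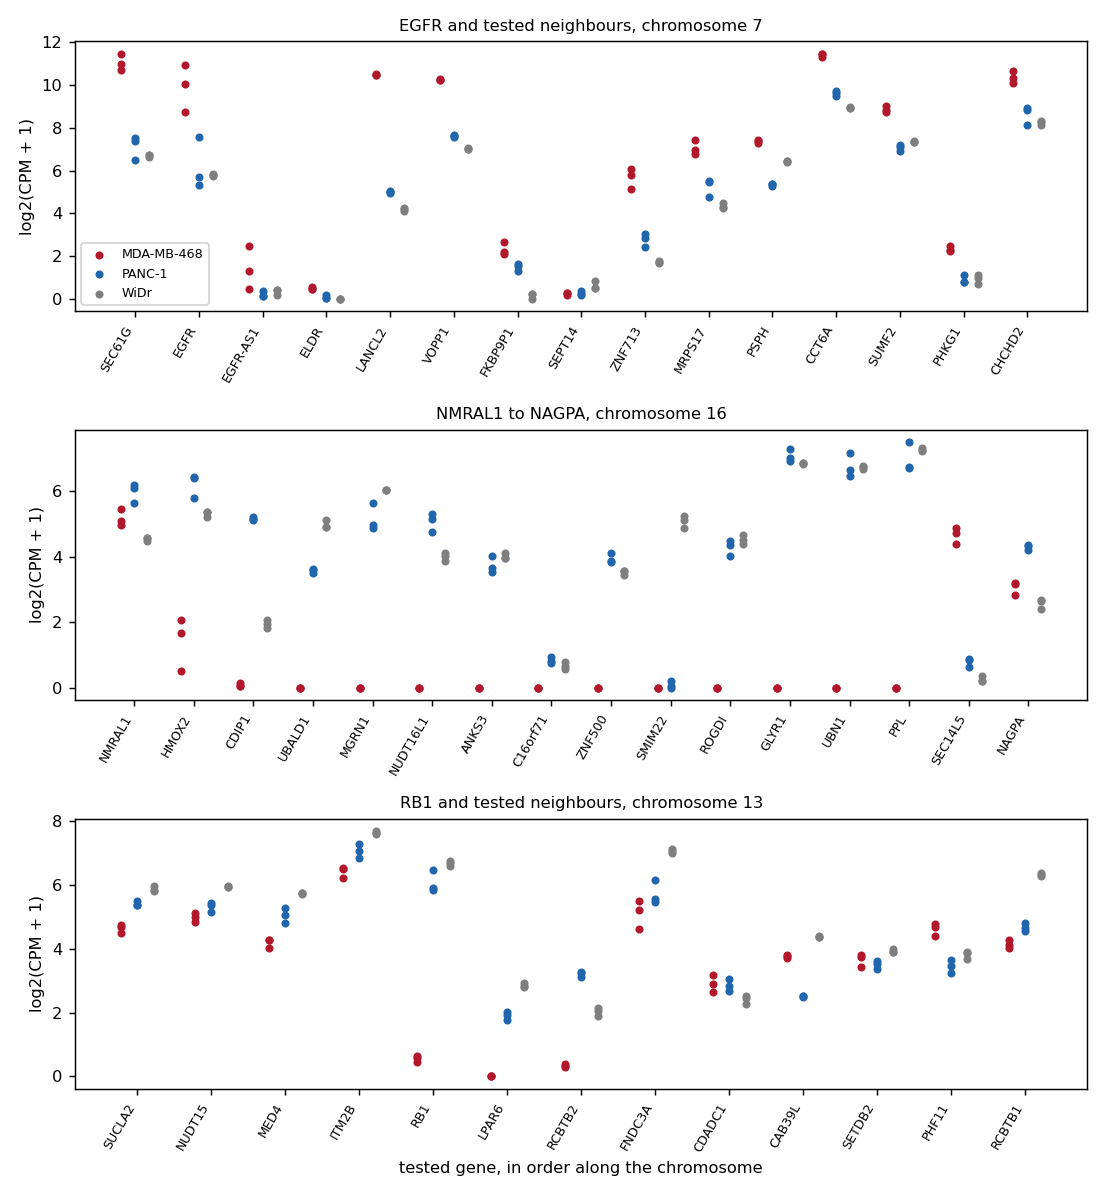
Points give log2(CPM + 1) in each control library for tested genes in chromosomal order: around EGFR (top), from NMRAL1 to NAGPA on chromosome 16 (middle) and around RB1 (bottom), with MDA-MB-468 in red, PANC-1 in blue and WiDr in grey. In the top panel SEC61G, EGFR, LANCL2 and VOPP1 lie above both lines, in the middle panel 11 genes sit at 0 in MDA-MB-468, and in the bottom panel RB1, LPAR6 and RCBTB2 are near 0 there.

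Tumour suppressor genes differed in how low they were. RB1, which restrains E2F factors, had 0.370, 0.476 and 0.559 CPM in MDA-MB-468, 87.0, 59.2 and 56.3 CPM in PANC-1, and 107, 95.3 and 101 CPM in WiDr, with log2 fold changes of -7.17 ± 0.24 and -7.75 ± 0.25. LPAR6, which lies within RB1, had no count in MDA-MB-468, and RCBTB2, whose coordinates also lie within RB1, averaged 0.261 CPM in MDA-MB-468, against 8.21 CPM in PANC-1 and 3.08 CPM in WiDr. ITM2B and FNDC3A on either side were reduced by less, with log2 fold changes of -0.65 ± 0.13 and -0.62 ± 0.24 over PANC-1, where the FNDC3A groups overlapped, and of -1.23 ± 0.13 and -1.96 ± 0.25 over WiDr. SMAD4, the shared mediator of TGF-beta signals, had 0.826, 0.644 and 0.341 CPM in MDA-MB-468, 40.0 to 44.5 CPM in PANC-1 and 16.2 to 18.4 CPM in WiDr. ELAC1 beside it averaged 0.151 CPM in MDA-MB-468, 5.58 CPM in PANC-1 and 2.39 CPM in WiDr, while ME2 and MEX3C on either side of them kept 69.3 and 58.8 CPM in MDA-MB-468. CDKN2A, an inhibitor of cyclin-dependent kinases, was present at 98.7, 71.0 and 74.2 CPM in MDA-MB-468, had no count in PANC-1 and did not pass the test against WiDr (62.3, 71.6 and 68.0 CPM; log2 fold change 0.27 ± 0.15).

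Among 24 genes of the RB and E2F pathway 9 rose over both lines and 8 fell, against 20.8% and 18.2% of all genes. E2F2, an activator of replication genes, had 82.2, 97.8 and 88.6 CPM in MDA-MB-468, 6.94 to 10.4 CPM in PANC-1 and 6.24 to 6.99 CPM in WiDr. E2F1, E2F3, CCNE1, CCNE2 and TFDP1 also rose, CCNE2 (a cyclin of S-phase entry) with log2 fold changes of 1.79 ± 0.12 and 1.72 ± 0.12. The genes that fell included CCND1, CDK4 and CDK6, which act upstream of RB1; CCND1 lay at a log2 fold change of 0.10 over the WiDr guide controls. CDK6 had 16.1, 20.2 and 18.2 CPM in MDA-MB-468, 48.3 to 80.4 CPM in PANC-1 and 252 to 280 CPM in WiDr. Of 27 mitosis genes 24 were higher than in WiDr, against 36.9% of all genes, and 12 were lower than in PANC-1, against 34.8%. Over both lines 4 rose, against 20.8% of all genes.

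Most interferon-stimulated genes were lower in MDA-MB-468. Of 36 members 20 fell below both lines, against 18.2% of all genes, 1 (USP18) rose over both, and 32 were lower than in WiDr, against 34.9%. The median log2 fold change was -0.73 over PANC-1 and -3.34 over WiDr. MX2, an antiviral GTPase, had 0.427, 0.448 and 0.683 CPM in MDA-MB-468, 61.2 to 71.8 CPM in PANC-1 and 27.6 to 28.9 CPM in WiDr. IFIT1, which binds viral RNA, had 1.62, 1.60 and 2.42 CPM in MDA-MB-468, 24.3 to 30.1 CPM in PANC-1 and 43.2 to 45.2 CPM in WiDr. ISG15, a ubiquitin-like protein, averaged 6.13 CPM in MDA-MB-468, 39.3 CPM in PANC-1 and 160 CPM in WiDr. The pattern was not uniform, since OAS1, MX1 and IFI44 were higher than in PANC-1 and lower than in WiDr. Some calls differed between arms: USP18 was lower than in the WiDr guide controls (log2 fold change -0.75), and in the hairpin 2 libraries OAS1 and MX1 were higher than in WiDr (0.50 and 1.10).

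Of 15 tested genes of antigen presentation 5 fell below both lines (18.2% of all genes; 8 of 16 tested without replicate 1 of MDA-MB-468 and of PANC-1), among them HLA-B, HLA-C, B2M and CD74. HLA-B averaged 46.4 ± 10.2 CPM in MDA-MB-468, 217 ± 45.6 CPM in PANC-1 and 147 ± 4.45 CPM in WiDr, but in the hairpin 2 libraries it was higher than in WiDr (log2 fold change 0.98). B2M, the invariant chain of class I molecules, averaged 326 CPM in MDA-MB-468, 985 CPM in PANC-1 and 854 CPM in WiDr. NLRC5, a transactivator of class I genes, rose nevertheless, with 12.1 CPM in MDA-MB-468, 3.42 CPM in PANC-1 and 3.35 CPM in WiDr, and so did PSMB8. HLA genes are polymorphic and alike in sequence, so their counts also depend on the alleles of each line. Among 22 tested NF-kB and cytokine genes 6 fell, against 18.2% of all genes, among them CXCL1, CCL5 and IL32. Of the 22, 12 did not pass the filter in MDA-MB-468, so the count is a description. The 3 that rose were CXCL16, IL18 and CCL28, a chemokine of mucosal epithelium (25.6 CPM in MDA-MB-468, 3.43 CPM in PANC-1 and 4.72 CPM in WiDr).

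Several cancer-testis antigens of the X chromosome, which are normally expressed in germ cells, were higher in MDA-MB-468. Of 35 listed genes 10 had enough counts to be tested, 9 of these rose and PRAME fell, where 20.8% and 18.2% of all genes did. Of the 10, 6 passed the count filter through MDA-MB-468 alone, so the count is a description. MAGEA3 had 367, 279 and 320 CPM in MDA-MB-468, no count in PANC-1 and 2.77 to 3.06 CPM in WiDr. MAGEA6 had 366, 290 and 316 CPM in MDA-MB-468, at most 0.057 CPM in PANC-1 and 22.7 to 23.7 CPM in WiDr. MAGEA12 averaged 166 CPM in MDA-MB-468 and 0.168 CPM in WiDr, with no count in PANC-1. The run from GABRA3 to MAGEA6 held 8 genes at least 4-fold higher than in both lines over 604 kb (chrX:152166234-152769747, hg38). PRAME, on chromosome 22, had no count in MDA-MB-468, 144 to 154 CPM in PANC-1 and at most 0.161 CPM in WiDr, so its call against WiDr rests on few counts, and it was not higher in WiDr in the hairpin libraries. Of 50-base stretches of MAGEA3 transcripts 54.9% also occur in MAGEA6, and of those of MAGEA2 96.4% occur in MAGEA2B, so the division of counts within each pair is uncertain.

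The promoters of MAGEA3 and MAGEA6 are shown because the copies match base for base. The RefSeq windows (GRCh38.p14, 250 bases upstream, 5′ to 3′ on the gene's strand) are chrX:152698544-152698793 (plus strand) and chrX:152769690-152769939 (minus strand), and 250 of 250 bases were the same.
MAGEA3: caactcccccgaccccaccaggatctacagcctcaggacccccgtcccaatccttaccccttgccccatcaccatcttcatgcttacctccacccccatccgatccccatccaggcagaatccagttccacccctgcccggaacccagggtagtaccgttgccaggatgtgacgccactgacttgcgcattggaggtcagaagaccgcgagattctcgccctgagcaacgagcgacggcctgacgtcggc
Each window holds 15 CG dinucleotides, against a median of 11 over 35116 windows. Neither TATAAA nor TGANTCA is in it. DNA methylation was not measured.

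Most HOX genes tested, which set position along the body axis, were lower in MDA-MB-468. Of 32 tested 18 fell below both lines, against 18.2% of all genes, with 13 of the 32 tested through the other lines alone, and 1 rose (HOXC12, at 0.788 CPM in MDA-MB-468). The median log2 fold change was -3.15 over PANC-1 and -3.23 over WiDr. HOXB9 had no count in MDA-MB-468, 77.2, 71.1 and 73.0 CPM in PANC-1 and 225, 234 and 231 CPM in WiDr, so that MDA-MB-468 was at least 2540-fold lower than PANC-1 and 7910-fold lower than WiDr. HOXB5 and HOXB8 also had none, and HOXB6 averaged 0.120 CPM in MDA-MB-468, 56.1 CPM in PANC-1 and 50.4 CPM in WiDr. HOXB3, HOXB4 and HOXB7 kept 6.001 to 6.91 CPM on average in MDA-MB-468 and were lower than in both lines. The HOXC genes HOXC10, HOXC11 and HOXC13 lay above WiDr, HOXC10 with 30.2 CPM in MDA-MB-468, 103 CPM in PANC-1 and 0.207 CPM in WiDr.

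Wnt target and crypt genes fell below both lines for 8 of 17 tested members, against 18.2% of all genes. Only APCDD1, a membrane inhibitor of Wnt receptors, rose over both, where 20.8% of all genes did. Of the 17, 6 did not pass the filter in MDA-MB-468 and entered through the other lines, so the count is a description. Without replicate 1 of MDA-MB-468 and of PANC-1, 8 fell and 3 rose. APCDD1 had 34.1, 32.5 and 33.6 CPM in MDA-MB-468, no count in PANC-1 and at most 0.0322 CPM in WiDr. RNF43, a feedback ligase of the pathway, averaged 3.37 CPM in MDA-MB-468, 6.49 CPM in PANC-1 and 176 CPM in WiDr. NKD2, LGR5 and SP5 had no count in MDA-MB-468. AXIN2, a general feedback target, averaged 34.8 CPM in MDA-MB-468, 0.613 CPM in PANC-1 and 43.6 CPM in WiDr.

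Of 24 aldehyde dehydrogenase genes and NRF2 targets 12 rose over both lines and 5 fell, against 20.8% and 18.2% of all genes. ALDH3B2 had 367, 348 and 361 CPM in MDA-MB-468, 0.102 to 0.285 CPM in PANC-1 and 0.419 to 0.620 CPM in WiDr. ALDH1A3, a retinaldehyde dehydrogenase, averaged 815 ± 86.8 CPM in MDA-MB-468, 228 ± 20.2 CPM in PANC-1 and 362 ± 3.66 CPM in WiDr. AKR1C2, a steroid-converting reductase, averaged 454 CPM in MDA-MB-468, no count in PANC-1 and 18.2 CPM in WiDr, and shares 38.1% of its 50-base stretches with AKR1C1. TXNRD1 and ME1, which use or supply NADPH, fell, TXNRD1 with 281 CPM in MDA-MB-468, 724 CPM in PANC-1 and 629 CPM in WiDr.

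The genes of phosphofructokinase, an enzyme of glycolysis, differed in direction. Of 27 tested genes of hypoxia and glycolysis 4 rose and 8 fell, against 20.8% and 18.2% of all genes. PFKL, the liver form of phosphofructokinase, had 221, 203 and 198 CPM in MDA-MB-468, 57.3 to 64.5 CPM in PANC-1 and 48.8 to 54.6 CPM in WiDr. PFKM, the muscle form, fell to 14.8 CPM in MDA-MB-468, against 72.0 CPM in PANC-1 and 72.5 CPM in WiDr, and PFKP, the platelet form, fell as well, though in the hairpin 2 libraries its log2 fold change over WiDr was 0.05. HK1 and HK2, the first enzymes of the pathway, rose (HK1 was lower than in PANC-1 in the hairpin 2 libraries, at -0.36 log2), whereas TPI1 fell to 164 ± 40.8 CPM in MDA-MB-468, against 688 ± 148 CPM in PANC-1 and 632 ± 28.9 CPM in WiDr. LDHB averaged 144 CPM in MDA-MB-468, 579 CPM in PANC-1 and 731 CPM in WiDr.

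Of 25 cholesterol synthesis genes 4 were higher and 4 lower than in both lines, under the 20.8% and 18.2% of all genes. SQLE, squalene epoxidase, had 24.8, 27.6 and 27.9 CPM in MDA-MB-468, 121 to 128 CPM in PANC-1 and 167 to 171 CPM in WiDr. Of 73 ribosomal protein genes 12 fell below both lines and 1 rose, under the shares of all genes, with medians of -0.08 over PANC-1 and -0.66 over WiDr. Their transcripts are short, and in replicate 1 of MDA-MB-468 short transcripts were high. Without that replicate 22 of the 73 fell and 0 rose, and without replicate 1 of PANC-1 as well 55 fell and 2 rose, so the count depends on these libraries. RPLP2, which of these 12 had the largest fall by the smaller of its log2 fold changes, had 401, 244 and 281 CPM in MDA-MB-468, 502, 879 and 990 CPM in PANC-1, and 870, 1012 and 962 CPM in WiDr.

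Along the genome the calls were uneven between chromosomes. On chromosome 21, 78 of 151 tested genes (51.7%) were higher in MDA-MB-468 than in both lines and 7.28% were lower, against 20.8% and 18.2% of all genes. Chromosomes 22 (38%), 19 (31.8%) and 6 (31.1%) also had many higher genes. Chromosome 15 had the most lower genes, 177 of 487 (36.3%), with 7.6% higher, and chromosome 12 had 30.3% lower. The median log2 fold change was 0.88 over PANC-1 and 1.00 over WiDr on chromosome 21, and -0.59 and -0.79 on chromosome 15. Genes of a chromosome are not independent, and these shares are a description with no test.

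**Figure D5:**
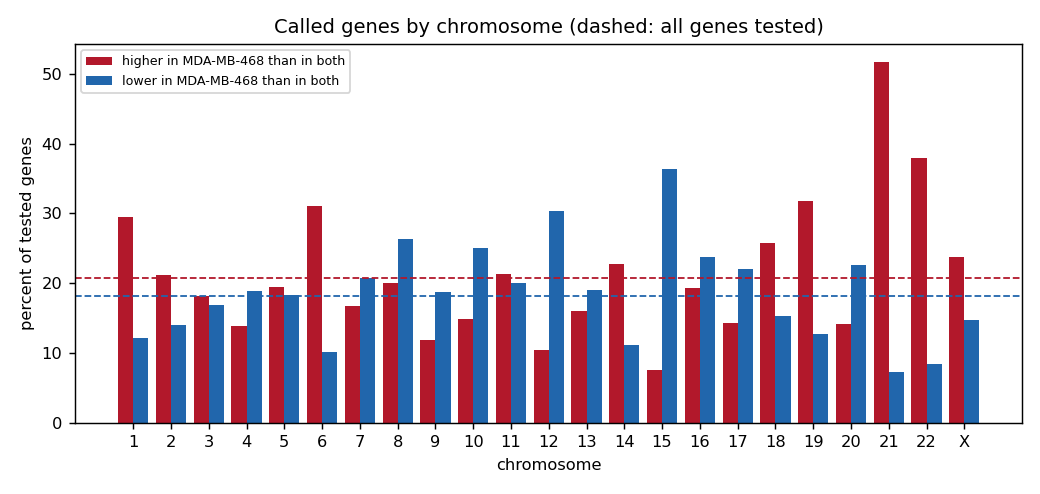
Bars show, for each chromosome, the percent of tested genes higher (red) and lower (blue) in MDA-MB-468 than in both other lines, and dashed lines mark 20.8% and 18.2% of all genes. Chromosome 21 has the tallest red bar (51.7%) and chromosome 15 the tallest blue bar (36.3%).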

How the data were processed

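Poly-A RNA of 36 libraries was sequenced, of which 9 hairpin controls were compared. The authors deposited expected counts per gene, without normalization. Bowtie2 2.1.0, RSEM 1.2.15 and the hg38 build are named in the submitters' processing notes. Annotation and strand setting: not given in the sources used here. Expected counts were rounded to whole numbers.

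The 9 libraries entered 1 fit by line with edgeR 4.0.16 in R 4.3.3 (filterByExpr, TMM, robust quasi-likelihood F test), which left 16112 of 26475 genes. P values were adjusted by Benjamini-Hochberg over all genes of a contrast, with a threshold of 0.05. Standard errors were taken as the absolute log2 fold change over the root of the F statistic. DESeq2 1.42.0 and other fits served as alternatives. A gene counted when it passed against both lines with the same sign. Means are given with the SD of 3 libraries. Where all 3 libraries of a line had no count, a fold was bounded with a floor of 3 counts over the line, which covers counting error only. Levels are not corrected for transcript length and are compared within a gene.

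Named genes were the 16 higher and 16 lower genes with the largest smaller difference in mean log2(CPM + 1), without uncharacterised loci, and members of gene lists, some of which were picked for the text after their values were seen. Neighbours of list genes and runs along chromosomes were named after their values were seen. The members, lists and tests were chosen with earlier results of these data known. Symbols were matched to GENCODE 29 for coordinates (90.0%). Replicates were treated as biological, as the design text says, and chi-square per degree of freedom between them was 3.88 to 177. Replicate numbers did not pair libraries: residuals of libraries with the same number correlated at -0.47 to 0.10, against -0.32 to 0.54 for other pairs. The gene targeted in the other arms and some list members are not reported here.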

Additional observations from a re-analysis of the deposited data

How the results depend on the processing

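The counts of genes called stayed within 1.5 times of those reported under other scalings, filters, DESeq2, libraries left out and the other arms. The exception was edgeR's test against a fold of 2 (glmTreat), which called 2736 genes higher and 2725 lower than in PANC-1, 2939 higher and 2811 lower than in WiDr, and 1381 higher and 1176 lower than in both. Leaving out each library in turn gave 3060 to 3510 genes higher and 2641 to 3014 lower than in both. The replicate block, although the numbers did not pair libraries, gave 2980 higher and 2557 lower. Other scalings moved the median log2 fold change by at most 0.026 in size (-0.026 with RLE factors against WiDr). The 2 replicates that stood apart and a transcript length offset were examined after seeing the data.

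Log2 fold changes of 218 named genes in 2 contrasts were compared with those of each alternative fit. Over all genes, contrasts and fits they changed sign in 30 cases (PRAME at 0 included), whose cause was not tested. They lost their call in 143 cases, gained one in 34, and were unchanged in sign and call in 10223. In the hairpin 1 libraries, over PANC-1 they were -1.27 for CEACAM5, -0.58 for ERBB2, -0.08 for AREG, -3.44 for EREG and -0.09 for HK1, and over WiDr -0.05 for CDKN2A, 0.12 for GRHL2, 0.09 for HLA-B, 0 for PRAME and 0.63 for AXIN2. In the hairpin 2 libraries, over PANC-1 they were -0.79 for ERBB2, 1.73 for PIGR, -3.94 for EREG and -0.36 for HK1, and over WiDr 0.50 for OAS1, 1.10 for MX1, 0.98 for HLA-B, 1.89 for PRAME and 0.05 for PFKP. Over the WiDr guide controls they were -0.48 for PROM1, 0.15 for GRHL2, -0.03 for NAGPA, 0.10 for CCND1 and -0.75 for USP18. With the length offset, GRHL2 was at 0.02 over WiDr. Without replicate 1 of MDA-MB-468 and PANC-1 together, CEACAM5 was at -2.27 over PANC-1 and GRHL2 at 0.10 over WiDr. Leaving out each library in turn gave -1.81 to 3.16 for CEACAM5 and -0.39 to 0.85 for EREG over PANC-1, and -0.22 to 0.10 for GRHL2 over WiDr. Depth limits genes near the floor of 3 counts over a line, where a count of 0 does not show absence.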

Other observations

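Further stretches of neighbouring genes moved together against both lines. Counting genes with a mean of at least 5 CPM, 8 runs of 3 or more consecutive genes were at least 4-fold higher in MDA-MB-468 (38 genes in all) and 6 runs were at least 4-fold lower (25 genes), where 3.29% and 3.75% of the 11027 genes counted met the rule singly. The rule for these runs was chosen after seeing the data. On chromosome 19, ZNF542P, ZNF667, its antisense partner ZNF667-AS1 and ZNF470 formed a run of zinc finger genes seen almost only in MDA-MB-468: ZNF667 had 14.5, 18.03 and 19.6 CPM in MDA-MB-468, no count in PANC-1 and at most 0.0295 CPM in WiDr. On chromosome 1, CYP4B1, CYP4X1 and CYP4Z1, cytochrome P450 enzymes that act on fatty acids, ran together with PDZK1IP1. CYP4X1 averaged 73.4 CPM in MDA-MB-468, 0.917 CPM in PANC-1 and 0.0403 CPM in WiDr.

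On the X chromosome, ARMCX4, ARMCX6 and ARMCX3, armadillo-repeat genes, were lower together with ZMAT1. ARMCX6 had no count in MDA-MB-468, 38.0 to 51.6 CPM in PANC-1 and 21.8 to 23.2 CPM in WiDr. RNF128, a ubiquitin ligase in another X-linked run, averaged 0.0093 CPM in MDA-MB-468, 39.9 CPM in PANC-1 and 79.8 CPM in WiDr. That run of 3 includes CXorf57, near the floor in 2 lines. It had no count in MDA-MB-468 and 5 over the WiDr libraries, and these groups overlapped. On chromosome 17, PRKCA, a protein kinase C, averaged 12.97 CPM in MDA-MB-468, 140 CPM in PANC-1 and 72.8 CPM in WiDr, and its neighbours CEP112 and CACNG4 were also at least 4-fold lower than in both lines. APOH in the same run had 1 count over the MDA-MB-468 libraries and 11 over those of PANC-1, so its call against PANC-1 rests on few counts.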
